A study of Mus musculus with 14 samples.

Results

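The comparison described here set the RNA of whole livers labelled cKO against that of whole livers labelled WT, in male C57BL/6 mice of 8 weeks. It used 4 of the 14 samples of the series, namely the input libraries WT 2, WT 3, cKO 2 and cKO 3, which hold fragmented liver RNA set aside before the immunoprecipitation of N6-methyladenosine (m6A). Per the study, the mice labelled cKO carried a Cre recombinase driven by the albumin promoter together with floxed Mettl3 alleles. Exons 2 and 3 are removed from these alleles. The controls were littermates, written as Alb-cre Mettl3-/- and named wild-type, which is read here as the same Cre without floxed Mettl3. Wild-type or heterozygous littermates are also mentioned as controls. The albumin promoter is active in hepatocytes, so the other cells of the liver keep the intact gene. Livers had been flash frozen, and the labels do not say whether a library came from 1 animal or from several. Levels are given in FPKM, in which the fragments of a gene are divided by its transcript length and by the size of the library. Entries of the same symbol were summed and genes averaging 1 FPKM or more over the 4 libraries were kept, which left 10922 of 22481 genes. It is the only comparison of expression in the series with more than 1 library per group.

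METTL3 is the catalytic subunit of the complex that adds m6A to messenger RNA, a mark that reader proteins bind and that can change the stability, splicing and translation of the transcript. The liver secretes most plasma proteins and carries out drug, bile acid, lipid and amino acid metabolism, and hepatocytes do most of this work. In mice many liver genes also differ between the sexes under the control of pituitary growth hormone, whose release is pulsed in males and more continuous in females.

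The libraries held between 3261238 and 5875123 fragments on genes, so that 1 FPKM corresponded to a median of 11.9 to 20.01 fragments. The Y-linked genes Ddx3y (5.29 to 8.28 FPKM) and Eif2s3y (12.6 to 18.2 FPKM) were detected in all 4 livers. Mettl3 itself was at 8.43 FPKM in WT 2, 10.6 in WT 3, 26.3 in cKO 2 and 14.7 in cKO 3 (log2 difference 0.99 ± 0.42 SE, adjusted p = 0.196). It was therefore not lower in the libraries labelled cKO, and since FPKM is summed over the whole transcript it does not check for the loss of exons 2 and 3, so every direction below is relative to the labels. The 2 WT libraries were closer to each other (r = 0.927 over log2 values) than the 2 cKO libraries were (r = 0.856), and pairs across the labels gave r between 0.766 and 0.824. Mitochondrially encoded genes took 15.5% and 17.6% of all FPKM in the livers labelled WT and 21.9% and 28.0% in those labelled cKO. In bulk RNA, fewer cells of a type and less RNA per cell cannot be told apart.

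Differences were tested with limma on log2(FPKM + 1), with p-values adjusted over all 10922 genes and called under 0.05. Of these genes 403 (3.69%) were higher and 165 (1.51%) were lower in the livers labelled cKO. The genes that fell were abundant ones, with a median of 103 FPKM in the livers labelled WT and 10.8 FPKM in those labelled cKO. The genes that rose went from a median of 3.27 FPKM to 22.4 FPKM. For all 568 called genes the lower library of the higher group lay at least 2-fold above the higher library of the other group on this scale. The median log2 difference over all tested genes was 0.42, and scaling the libraries to a common median ratio moved it to -0.03. With that scaling 164 genes (1.52%) were higher and 292 (2.7%) were lower, among them 164 of the 403 and all 165 of the first fit. The balance of directions therefore depends on the scaling. All 568 called genes kept their direction, but their gap of at least 2-fold left little room for a change. The 11 gene lists below whose median lay between 0.01 and 0.42 had a negative median after this scaling, and no other list changed sign. Of the genes named below, Igfbp1, Igf2, Acot1, Col4a1, Dcn, Mcm6, Stmn1, Ugdh, Trib3, Ctgf, Btg2, Cyr61, Eef1g, Anxa2 and Cd74 no longer passed with it, and Cyp2d9, Onecut1, Cyp2e1 and Alb, all lower under the cKO label, then passed. All 568 genes also kept their direction without any 1 of the 4 libraries, which the gap between the labels had fixed in advance. Almost none was still called there, where 1 residual degree of freedom is left. Every count below therefore needs all 4 libraries.

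Among the genes that fell most were secreted proteins, transporters and steroid enzymes of the adult male liver. The major urinary proteins (Mup), small carriers of pheromones that the liver releases into blood and urine, showed the largest differences. Their summed level was 7097 FPKM in WT 2 and 9834 in WT 3 but 9.57 in cKO 2 and 15.4 in cKO 3. Of 19 tested Mup genes, 15 fell and none rose, although the copies on chromosome 4 are nearly identical and the value of any one of them is uncertain. Mup7 (chromosome 4, 60066468 to 60070475, mm10) was at 1876 and 3029 FPKM in the livers labelled WT and was listed at 0 in both labelled cKO (adjusted p = 6.67e-05). Serpina1e, one of several closely related copies of the alpha-1-antitrypsin gene, was at 3639 and 4218 FPKM against 8.56 and 15.7 FPKM (log2 difference -8.28 ± 0.37, adjusted p = 0.000206). C8a, which encodes the alpha chain of complement component C8, was at 239.7 and 175 FPKM against 1.69 and 0.854 FPKM (-6.53 ± 0.39, adjusted p = 0.000854). Slco1a1, an uptake transporter for organic anions, was at 118 and 102 FPKM against 0.404 and 0.0477 FPKM (-6.51 ± 0.38, adjusted p = 0.000854). In each of these genes both livers labelled cKO lay far below both labelled WT, and the spread within a label was small beside the gap.

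The genes that rose most were a mixed group of epithelial, secretory and stress genes, most of them near the detection limit in the livers labelled WT. Ly6d, a membrane-anchored protein of the Ly6 family, was at 0 and 1.43 FPKM in WT 2 and WT 3 and at 103 and 242 FPKM in cKO 2 and cKO 3 (6.67 ± 0.59, adjusted p = 0.00387). S100a11, a calcium-binding protein, was already present in the livers labelled WT, at 12.4 and 10.3 FPKM, and reached 459 and 419 FPKM (5.16 ± 0.32, adjusted p = 0.00109). Nupr1, a stress-induced chromatin protein, went from 2.92 and 1.41 FPKM to 47.3 and 114 FPKM (4.60 ± 0.52, adjusted p = 0.0100). Ubd, a ubiquitin-like modifier, Slpi, a secreted protease inhibitor, and Prss8, a membrane serine protease, also rose (log2 differences 4.36, 4.16 and 3.87). Sprr1a, a small proline-rich protein of epithelia, was listed at 0 in WT 2 and WT 3 and was at 13.1 and 50.3 FPKM in cKO 2 and cKO 3 (adjusted p = 0.0157). mt-Atp8 was also called higher, but it was listed at about 0 in both livers labelled WT and at 30.1 and 305 FPKM in those labelled cKO, and it is not read further.

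**Figure D1:**
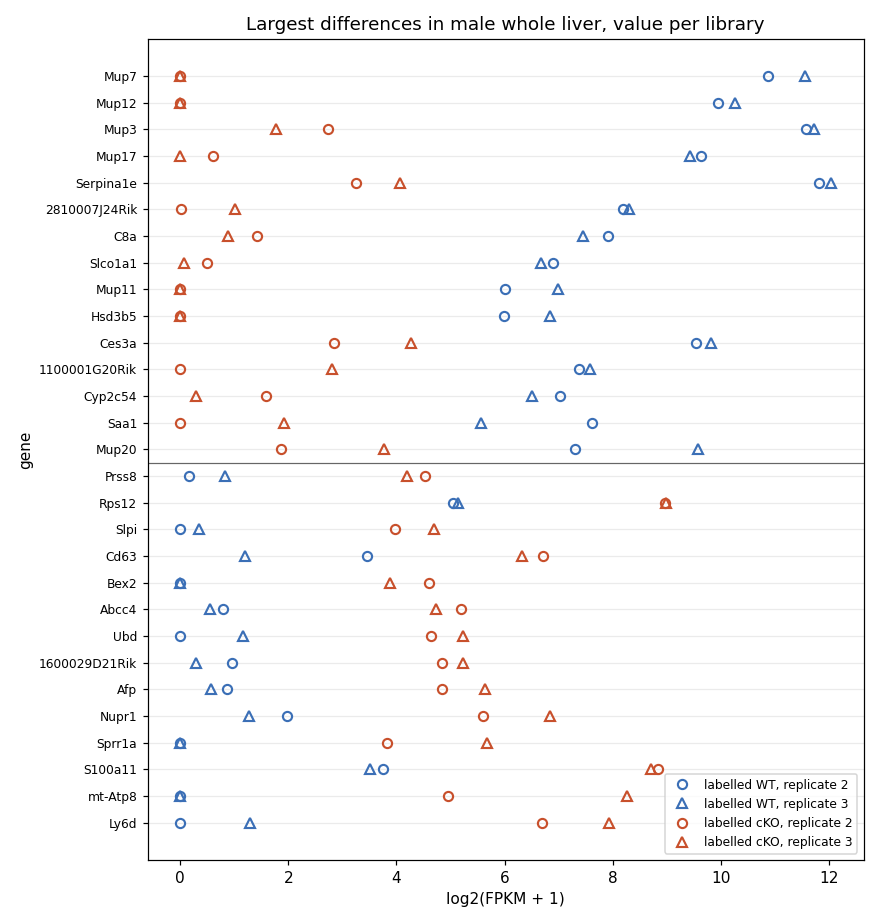
Levels of the 15 genes that fell most and 14 of the 15 that rose most, as log2(FPKM + 1) on the x axis, with 1 point per library (color for the label, shape for the replicate). The libraries of the 2 labels do not overlap for any gene shown, as for S100a11, at 10.3 and 12.4 FPKM under WT and at 419 and 459 FPKM under cKO.

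Most of the tested genes that are expressed more in male than in female mouse liver fell. Of 17 tested male-biased genes 11 fell, none rose, and their median log2 difference was -3.19, against 0.42 over all tested genes. Hsd3b5, a steroid dehydrogenase of male liver, was at 62.2 and 114 FPKM in WT 2 and WT 3 and was listed at 0 in both livers labelled cKO (adjusted p = 0.00163). Cyp7b1, an oxysterol hydroxylase of the alternative bile acid pathway, was at 52.1 and 52.4 FPKM against 0 and 0.598 FPKM (-5.40 ± 0.41, adjusted p = 0.0021). Cyp4a12a, a fatty acid hydroxylase with near-identical copies, was at 119.7 and 101 FPKM against 0.179 and 5.61 FPKM (-5.31 ± 0.75, adjusted p = 0.0171). These genes were close to absent under the cKO label. Elovl3, a fatty acid elongase, and Selenbp2, a selenium-binding protein, fell (-4.05 ± 0.56 and -3.80 ± 0.61), whereas Cyp2d9 had a large but uneven difference (194 and 353 against 12.4 and 61.1 FPKM, adjusted p = 0.0507) and Gstp1 did not pass (-0.78 ± 0.38, adjusted p = 0.252).

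Most female-biased genes stayed at or near 0 in all 4 male livers, and those that could be tested had, as a median, a higher level under the cKO label. Of the 26 listed genes 12 passed the filter on low values, and their median was 1.31, a value that a filter on the mean favours for genes that are high in 1 group only. Cyp2a4, a steroid hydroxylase of female liver, was at 16.2 and 6.65 FPKM against 91.2 and 34.3 FPKM (2.31 ± 0.59, adjusted p = 0.0693), so it did not pass the threshold. Sult2a1 and Sult3a1, hydroxysteroid and amine sulfotransferases of female liver, were listed at 0 in all 4 libraries. Cyp2b13 reached 1.06 and 0.840 FPKM at most, under the cKO label, so the male livers labelled cKO did not approach the level of a female liver for these genes (Cyp2b13 was at 172 FPKM and Sult3a1 at 55.6 FPKM in the female liver titled WT). The growth hormone pathway itself gave mixed values. Of 25 tested genes of the growth hormone and insulin-like growth factor axis 2 rose and 3 fell, and the median was 0.08 (none rose and 3 fell after median-ratio scaling). Egfr, the epidermal growth factor receptor, fell from 204 and 216 FPKM to 19.6 and 26.0 FPKM (-3.16 ± 0.33, adjusted p = 0.00802), and Lifr, the receptor of leukemia inhibitory factor, fell as well (-2.16 ± 0.36, adjusted p = 0.0245). Igf1, the hormone that growth hormone induces in liver, named after its values were seen, completed the 3 that fell (279 and 248.8 against 63.5 and 103 FPKM, -1.69 ± 0.36, adjusted p = 0.0456). Igfbp1, an IGF-binding protein, and Igf2, the fetal growth factor, rose (2.42 ± 0.47 and 2.76 ± 0.52). The growth hormone receptor Ghr was at 160.4 and 165 FPKM against 59.5 and 102 FPKM (-1.05 ± 0.37, adjusted p = 0.139), and Stat5b, the transcription factor that carries the hormone's signal, was at 6.13 and 8.30 against 5.34 and 6.23 FPKM (adjusted p = 0.714).

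**Figure D2:**
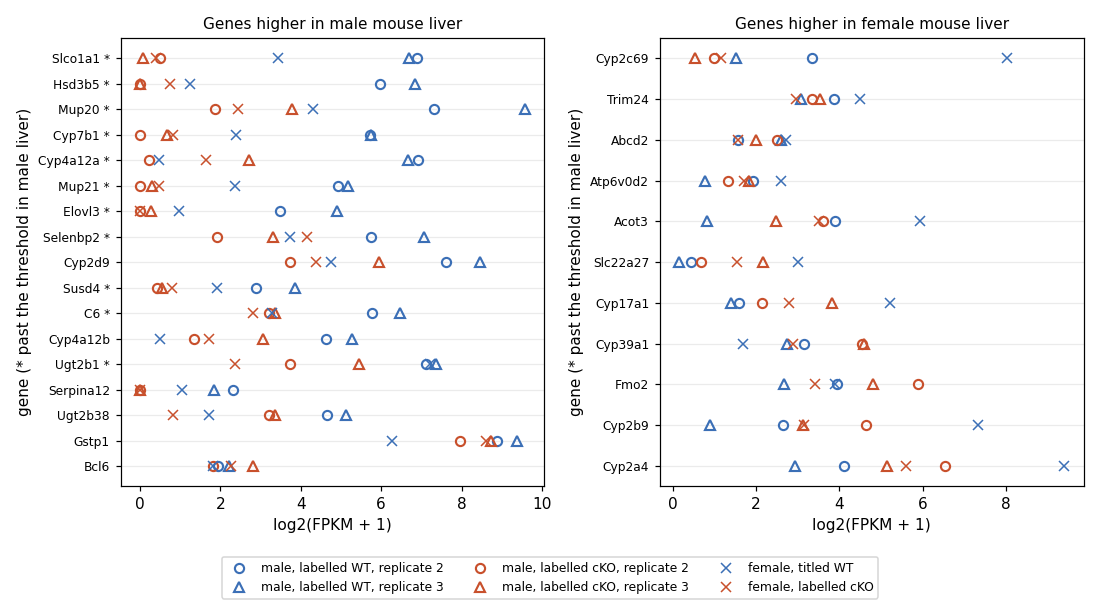
Levels of the 17 tested male-biased genes (left) and 11 of the 12 tested female-biased genes (right), as log2(FPKM + 1) on the x axis, with circles and triangles for the male livers, crosses for the female pair and stars for genes called in males. The male-biased genes Hsd3b5 and Cyp7b1 are at or near 0 under the cKO label, and Cyp2a4 is at 672 FPKM in the female liver titled WT.

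The promoters of the genes that fell differed in composition from those of all tested genes, a trait that the choice of genes did not use. A promoter here is the 250 bases before the start of the gene in RefSeq (assembly GRCm38.p6), and 8229 of the 10922 tested genes had one, 126 of the 165 that fell and 291 of the 403 that rose. At least 10 CG dinucleotides were found in 17.5% of the promoters of genes that fell, in 74.9% of those that rose and in 77.8% of those tested. In lists most of whose members were not called, the share was 5.88% for complement and 7.41% for cytochrome P450 family 2. For targets of the factor NRF2 it was 60%. A low share was thus not particular to the genes that fell. The letters TATAAA of the TATA box, on either strand, were in 26.2% of the promoters of genes that fell and 8.43% of those tested (14.3% of all 27025 promoters). The letters ATTGATT, a core of the site of the liver transcription factor ONECUT1 (HNF6), were in 22 of 126 promoters of genes that fell (17.5%), in 1.72% of those that rose, in 1.88% of those tested and in 3.01% of all promoters. Of the 22, 12 were near-identical Mup promoters, and without Mup genes the share was 10 of 114 (8.77%). It was 4 of 27 (14.8%) for cytochrome P450 family 2 and 2 of 17 (11.8%) for complement, lists most of whose members were not called. The values thus do not show these letters to be particular to the genes that fell. Among promoters with fewer than 10 CG dinucleotides the share was 9.78% of the 92 without Mup genes that fell and 3.89% of the 1825 tested, so part of the contrast goes with base composition. In the same range of CG dinucleotides TATAAA was in 26.9% of the 104 promoters of genes that fell and 15.9% of those tested. The letters GTTAAT, a half-site of HNF1, were in 19.8% of the promoters of genes that fell, 5.41% of those tested and 7.49% of all, and in 8 of 17 promoters of complement genes. With fewer than 10 CG dinucleotides the shares of GTTAAT were 22.1% and 9.92%, so that its contrast was smaller there as well. The letters TTCNNNGAA of STAT5 sites were in 11.1% against 7.10% of those tested (8.13% of all). Each motif was searched on both strands and on its own, so that a base can count for more than 1 motif, and the motifs were chosen after the gene values were known. A match is a run of letters and not a measured site. Onecut1, also looked up after its values were seen, was at 40.7 and 44.4 FPKM in WT 2 and WT 3 and at 18.0 and 12.2 FPKM in cKO 2 and cKO 3 (-1.46 ± 0.36, adjusted p = 0.0669), so it did not pass the threshold. Its labels did not overlap, but this also held for 4894 tested genes that lay higher and 1282 that lay lower.

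The promoters below show where the ONECUT1 letters lie in 4 genes that fell and that belong to different groups of liver functions, namely complement (C8a), the acute phase (Crp), protease inhibition (Serpina1e) and glucose transport (Slc2a2). Each is given 5′ to 3′ on the strand of the gene, with ATTGATT or its reverse complement in capitals. In C8a (chr4:104876399-104876648, minus strand) the first base of the match lies 127 bases before the start, in Crp (chr1:172697806-172698055, plus strand) 158, in Serpina1e (chr12:103956898-103957147, minus strand) 197 and in Slc2a2 (chr3:28697653-28697902, plus strand) 60.
C8a: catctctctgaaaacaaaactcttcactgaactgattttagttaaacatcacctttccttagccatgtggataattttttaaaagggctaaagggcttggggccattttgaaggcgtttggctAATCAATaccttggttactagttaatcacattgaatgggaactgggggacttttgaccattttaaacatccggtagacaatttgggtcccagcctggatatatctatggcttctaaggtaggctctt
Crp: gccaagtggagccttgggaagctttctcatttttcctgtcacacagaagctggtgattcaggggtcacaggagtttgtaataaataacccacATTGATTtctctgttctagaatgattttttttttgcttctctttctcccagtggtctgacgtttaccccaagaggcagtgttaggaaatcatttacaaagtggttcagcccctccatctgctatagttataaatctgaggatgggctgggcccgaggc
Serpina1e: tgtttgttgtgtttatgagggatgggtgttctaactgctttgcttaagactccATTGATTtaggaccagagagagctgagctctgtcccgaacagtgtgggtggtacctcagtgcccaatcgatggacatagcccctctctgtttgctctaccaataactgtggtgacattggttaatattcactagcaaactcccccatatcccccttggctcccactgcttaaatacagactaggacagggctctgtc
Slc2a2: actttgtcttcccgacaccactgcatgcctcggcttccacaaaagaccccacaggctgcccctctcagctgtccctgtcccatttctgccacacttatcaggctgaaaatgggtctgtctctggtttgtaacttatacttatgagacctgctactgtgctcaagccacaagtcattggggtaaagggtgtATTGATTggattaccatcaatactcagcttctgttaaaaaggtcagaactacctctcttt

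Cytochrome P450 enzymes, which oxidize drugs, steroids and fatty acids, fell more often than they rose, although most of those tested did not pass. Of 32 tested members of cytochrome P450 family 2, 14 fell and none rose, with a median log2 difference of -1.76. Cyp2j5, an epoxygenase of arachidonic acid, was at 265 and 236 FPKM against 7.05 and 3.40 FPKM (-5.40 ± 0.40, adjusted p = 0.00209), and Cyp2c44 and Cyp2f2 fell as well (-3.92 ± 0.39 and -3.72 ± 0.35). The most abundant member, Cyp2e1, which oxidizes ethanol, was at 3540.4 and 3334 against 1546 and 878 FPKM (-1.56 ± 0.36) and did not pass (adjusted p = 0.0552). Cyp2a5, a coumarin hydroxylase, and Cyp3a11, a drug and steroid hydroxylase, both abundant, overlapped between the labels (647 and 388 against 1597 and 643 FPKM, and 1280.2 and 2021 against 778 and 1949 FPKM, adjusted p = 0.253 and 0.664). The letters TATAAA were in 15 of 27 promoters of this family. In families 1, 3 and 4, 2 of 19 tested genes rose and 4 fell. Cyp1a1, the classical target of the aryl hydrocarbon receptor, rose from 0.0797 and 0.0765 FPKM to 6.35 and 14.7 FPKM (3.31 ± 0.52, adjusted p = 0.0214). Cyp4a31, a fatty acid hydroxylase with close paralogs, rose (2.81 ± 0.44) and Cyp4f14, which hydroxylates leukotrienes and vitamin K, fell (-2.90 ± 0.44), so members of family 4 moved in both directions.

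Conjugating enzymes and esterases fell more often than they rose, with 12 of 62 tested genes lower and 4 higher (median -0.51), and 19 and 3 after median-ratio scaling. The carboxylesterases Ces3b and Ces1f, which hydrolyse lipid and drug esters, fell from 136 and 135 FPKM to 4.95 and 3.77 FPKM (-4.68 ± 0.34) and from 175 and 226 FPKM to 12.2 and 10.3 FPKM (-4.03 ± 0.34). Among genes of bile acid synthesis and transport 7 of 29 tested fell and 2 rose (median -0.86). The uptake carrier of bile salts Slc10a1, named after its values were seen, fell from 282 and 239 FPKM to 12.05 and 23.2 FPKM (-3.87 ± 0.40, adjusted p = 0.00757), like Slco1a1 above. The efflux pump Abcc4, of the sinusoidal membrane, rose from 0.736 and 0.457 FPKM to 35.8 and 25.6 FPKM. The canalicular pump Abcc2, which exports conjugates into bile, was at 306 and 205 FPKM against 441 and 226 FPKM (adjusted p = 0.661), so its labels overlapped. Sult1e1, the estrogen sulfotransferase, looked up after its values were seen, was listed at 0 in both livers labelled WT and was at 7.36 and 10.6 FPKM in those labelled cKO (adjusted p = 0.0162).

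Of 26 tested complement genes 7 fell and 1 rose (median -0.88). Besides C8a, given above, C6, C8b, C9 and Hc, all of the membrane attack complex, the pore that late complement components form, were among the 7. C6 fell from 53.9 and 88.3 FPKM to 8.27 and 9.25 FPKM (-2.84 ± 0.38, adjusted p = 0.0157), C8b and C9 fell (-2.31 ± 0.35 and -2.77 ± 0.39), and Hc, which encodes C5 and is named after its values were seen, was at 286 and 258 against 98.4 and 104 FPKM (-1.42 ± 0.31, adjusted p = 0.0479). Serping1, the C1 inhibitor, also named after its values were seen, fell too (-1.78 ± 0.30, adjusted p = 0.0269). The central component C3 was at 2242 and 2509 against 1343 and 1638 FPKM (-0.68 ± 0.30, adjusted p = 0.217), and Cfb, the protease of the alternative pathway, did not pass either (adjusted p = 0.267). Clu, clusterin, which binds the terminal complex and is also named after its values were seen, rose from 820.1 and 919.7 FPKM to 3834 and 3279 FPKM (2.03 ± 0.30, adjusted p = 0.0191).

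Of 44 tested coagulation factors and protease inhibitors 7 fell and 1 rose (median -0.75). Klkb1, plasma prekallikrein, fell from 62.8 and 96.2 FPKM to 7.55 and 13.5 FPKM (-2.82 ± 0.42), and Plat, tissue plasminogen activator, was the 1 that rose (2.86 ± 0.54). Acute phase proteins moved both ways, with 7 of 31 tested lower and 3 higher (8 and 1 after median-ratio scaling). Crp, C-reactive protein, was at 183 and 128 FPKM against 13.7 and 12.4 FPKM (-3.45 ± 0.35, adjusted p = 0.00711), and Saa4, a constitutive serum amyloid A, fell by 3.35 on the log2 scale. Saa1 also fell but was uneven within the labels (194 and 46.6 FPKM against 0 and 2.79 FPKM, adjusted p = 0.0191). Lcn2, lipocalin 2, which binds bacterial siderophores, rose from 21.8 and 18.8 FPKM to 147 and 197 FPKM (3.01 ± 0.34, adjusted p = 0.0100). The most abundant plasma protein gene, Alb, was at 17598 and 25024 FPKM against 6112 and 11761 FPKM (-1.31 ± 0.41, adjusted p = 0.109), and Ahsg, fetuin A, was at 3346 and 5439 against 8615 and 10321 FPKM (1.14 ± 0.35, adjusted p = 0.105). Neither passed the threshold. Their labels did not overlap, but over all 10922 tested genes this also held for 4894 that lay higher and 1282 that lay lower. Hpx, hemopexin (1447 to 3851 FPKM), and Apoe, apolipoprotein E (6906 to 11292 FPKM), did not pass (adjusted p = 0.164 and 0.445).

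Genes of amino acid breakdown were lower in part. Of 59 tested genes 7 fell and none rose (median -0.57). Glul, glutamine synthetase, fell from 459 and 527 FPKM to 57.5 and 66.8 FPKM (-2.97 ± 0.31, adjusted p = 0.00802). Kynu and Haao, successive enzymes on the way from tryptophan to NAD, fell (-2.63 ± 0.56 and -2.39 ± 0.37), and so did Uroc1, urocanase of histidine breakdown (-2.43 ± 0.33). Ass1, argininosuccinate synthase of the urea cycle, was at 1208 and 1598 against 1118 and 854 FPKM (-0.51 ± 0.33, adjusted p = 0.374). The lists of zonated genes did not point to 1 zone of the lobule. Of 26 tested pericentral genes 5 fell and none rose (median -0.55), and of 26 tested periportal genes 3 fell and 3 rose (median -0.54). After median-ratio scaling 8 pericentral genes fell and none rose, and 6 periportal genes fell and 1 rose. Rgn, regucalcin, and Notum, a Wnt inhibitor of pericentral cells, fell (-3.71 ± 0.33 and -3.30 ± 0.50), as did the periportal genes Cyp2f2 and Etnppl, a phospholyase (-3.72 ± 0.35 and -2.60 ± 0.35). Aldh1b1, a mitochondrial aldehyde dehydrogenase of the periportal list, rose from 5.31 and 11.7 FPKM to 80.9 and 119.9 FPKM (3.47 ± 0.45, adjusted p = 0.0148).

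Among genes of fatty acid oxidation and ketogenesis 2 of 41 tested fell and 3 rose (median 0.12), whereas 5 fell and 1 rose after median-ratio scaling (median -0.40). Both that fell with the deposited FPKM handle fatty acids before oxidation. Fabp1, the fatty acid binding protein of hepatocyte cytosol, fell from 3530 and 3065 FPKM to 211 and 225 FPKM (-3.91 ± 0.30, adjusted p = 0.0021), and Slc27a2, which takes up and activates long chains, fell from 337 and 269 FPKM to 51.2 and 86.3 FPKM (-2.16 ± 0.37). Cd36, a fatty acid translocase, and Acot1, a thioesterase, rose (2.85 ± 0.52 and 2.10 ± 0.41). Of 30 tested genes of fatty acid and triglyceride synthesis 3 fell, and of 29 of cholesterol synthesis and uptake 1 fell, with medians of -0.95 and -0.63. These shares were 10% and 3.45%, against 1.51% of all tested genes. Of 24 tested glycogen genes 4 rose and 1 fell (median 0.03), and 1 rose and 1 fell after median-ratio scaling (median -0.35). Gys2, liver glycogen synthase, was at 73.1 and 54.8 FPKM against 17.1 and 13.6 FPKM (-1.99 ± 0.36, adjusted p = 0.0315). The study had selected Gys2, Egfr, Fasn and Mlxipl among genes lower in these same samples, so their lower levels are not independent evidence. Its selection also asked for lower RNA in hepatocytes and female livers and for loss of m6A peaks in hepatocytes. Fasn and Mlxipl did not pass here (-1.96 ± 0.56 and -2.34 ± 0.54, adjusted p = 0.0910 and 0.0546). By qRT-PCR the study also found less Gys2 mRNA in livers of cKO mice.

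Genes of the fetal liver were among those that rose. Of the 36 listed 25 passed the filter on low values, 9 rose and none fell, with a median of 1.60. The filter favours such a count and median for genes that are high in 1 group only, and 15 and 7 members were listed at 0 in WT 2 and WT 3. Afp, alpha-fetoprotein, went from 0.813 and 0.489 FPKM to 27.8 and 48.7 FPKM (4.53 ± 0.43, adjusted p = 0.00583). Gpc3, a heparan sulfate proteoglycan of fetal liver, went from 0.114 and 0.438 FPKM to 12.1 and 14.4 FPKM (3.49 ± 0.42, adjusted p = 0.0126). Bex2, a small adaptor protein, was listed at 0 in both livers labelled WT and was at 23.4 and 13.8 FPKM in those labelled cKO (adjusted p = 0.00802). These levels remained far under that of albumin. Of enzyme isoforms typical of adult hepatocytes, 3 of 20 tested fell and none rose (median -0.98). Of isoforms typical of fetal liver or other tissues, 2 of 23 rose and none fell (median 0.35), namely Pygb, brain glycogen phosphorylase, and Psat1, a serine synthesis enzyme (3.36 ± 0.57 and 3.26 ± 0.43). The median of this list lay below the 0.42 of all tested genes and was -0.11 after median-ratio scaling. Its differences were positive in 14 genes and negative in 9, against 7785 and 3137 over all tested genes, so the list as a whole was not set apart. The 2 pyruvate kinases differed in opposite directions without passing the test. Pklr, the liver isoform, was at 41.8 and 29.1 against 13.2 and 19.1 FPKM (adjusted p = 0.142), and Pkm at 6.98 and 6.87 against 14.3 and 28.7 FPKM (adjusted p = 0.104).

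Markers of bile duct cells and of the ductular reaction rose in part. Of 24 tested genes 8 rose and none fell (median 1.80), and 7 rose and 1 fell after median-ratio scaling. Here too the filter favours genes that are high in 1 group only, with 12 and 7 of the 30 members listed at 0 in WT 2 and WT 3 and 1 and 0 in cKO 2 and cKO 3. The list had summed levels of 667 and 712 FPKM in the livers labelled WT and 1356 and 1475 FPKM in those labelled cKO (exact permutation test, two-sided p = 0.333, the smallest that 2 against 2 allows). Most of the sum in the livers labelled WT came from Cp, ceruloplasmin, which hepatocytes also secrete (415 and 448 against 553 and 601 FPKM, adjusted p = 0.417). Cldn4, a tight junction claudin, was listed at 0 in WT 2 and WT 3 and was at 10.8 and 8.60 FPKM in cKO 2 and cKO 3 (adjusted p = 0.0145). Bicc1, an RNA-binding protein of tubular epithelia, went from 1.45 and 0.862 FPKM to 22.2 and 18.0 FPKM (3.30 ± 0.40, adjusted p = 0.0126), and Cd24a, a progenitor surface protein, rose (3.10 ± 0.51). The defining duct markers were low in the 4 male livers. Krt19 was at 1.16 and 0 FPKM against 4.15 and 2.54 FPKM (adjusted p = 0.153), Epcam at 0 and 0.30 against 2.80 and 1.66 FPKM (adjusted p = 0.143) and Krt7 under 1 FPKM in all 4. In the female pair they were higher in the liver titled cKO than in the one titled WT, at 45.0 against 1.46 FPKM for Krt19, 10.8 against 0.729 FPKM for Epcam and 8.91 against 0.228 FPKM for Krt7. Sox9, a transcription factor of ducts and of reactive hepatocytes, was at 0.590 and 1.32 against 6.89 and 6.27 FPKM (1.98 ± 0.44, adjusted p = 0.0521). Spp1, osteopontin, was at 53.8 and 16.3 against 218 and 148 FPKM (adjusted p = 0.0506). The part of duct cells in these values was not tested.

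With the deposited FPKM, several other cell types of the liver also had higher summed marker levels under the cKO label. None of these could pass a threshold with 2 against 2 livers (exact permutation test, p = 0.333 in each). The sums were not rescaled. Summed markers of Kupffer cells and macrophages were at 342 and 299 FPKM in WT 2 and WT 3 and at 596 and 949 FPKM in cKO 2 and cKO 3. Of the 23 tested 1 rose (4.35%, against 3.69% of all tested genes). That gene was Marco, a scavenger receptor, at 1.82 and 2.58 against 44.6 and 40.1 FPKM (3.77 ± 0.37, adjusted p = 0.00649), whereas the abundant C1qb and Cd5l did not pass (adjusted p = 0.0521 and 0.0531). Among markers of monocytes and lipid-associated macrophages, 3 of 18 rose. These were Cd63, a tetraspanin of lysosomes, Cd44, the hyaluronan receptor, and Cd9, another tetraspanin (4.20 ± 0.70, 2.93 ± 0.36 and 2.78 ± 0.34). Their list, with 12 positive and 6 negative differences among the 18, summed to 313 and 178 against 594 and 546 FPKM. Spp1, given above among the duct markers, is part of this sum too. The abundant F10, coagulation factor X, and Lgals3 lay lower under the cKO label without passing (-0.73 ± 0.37 and -0.31 ± 0.65). Stellate cell and matrix genes summed to 607 and 681 against 1105 and 1131 FPKM, and 4 of 37 rose (1 after median-ratio scaling), among them Thbs1, a matrix glycoprotein, Col4a1, of basement membranes, and Dcn, decorin (3.27 ± 0.43, 2.26 ± 0.44 and 1.60 ± 0.34). Of 24 sinusoidal endothelial markers none rose or fell (median 0.32, sums 257.3 and 200.6 against 340 and 349 FPKM). Their median lay below the 0.42 of all tested genes and was -0.15 after median-ratio scaling, so the higher sums depend on the scaling. Only 5 of 32 lymphocyte and neutrophil markers passed the filter, with S100a9, a neutrophil calcium-binding protein, listed at 0 in both livers labelled WT and at 12.6 and 4.59 FPKM in those labelled cKO (adjusted p = 0.0315). Hepatocyte identity genes summed to 49270 and 64112 against 35043 and 45880 FPKM, so both livers labelled cKO lay below both labelled WT. A large part of this sum was Alb, at 17598 and 25024 against 6112 and 11761 FPKM, which did not pass. The abundant Ahsg and Apoa1 lay higher under the cKO label without passing. Of 20 tested members 3 fell and none rose, with 14 negative and 6 positive differences. Erythroid genes overlapped between the labels (86.1 and 242 against 63.1 and 248 FPKM), but Alas2, which starts heme synthesis in red cells, fell from 26.5 and 26.9 FPKM to 0.936 and 3.58 FPKM (-3.22 ± 0.49, adjusted p = 0.0209).

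Of 30 tested targets of the tumor suppressor p53, 9 rose and none fell (median 1.32), and after median-ratio scaling 4 rose (median 0.96). Cdkn1a, the cyclin-dependent kinase inhibitor p21, went from 1.12 and 2.37 FPKM to 26.6 and 35.8 FPKM (3.58 ± 0.42, adjusted p = 0.0117). Phlda3, an inhibitor of AKT, went from 0.611 and 0.468 FPKM to 20.2 and 15.4 FPKM (3.60 ± 0.40, adjusted p = 0.0100), and Aen, a nuclease, and Tnfrsf10b, a death receptor, rose by 2.77 and 2.66 on the log2 scale. Mdm2, the ubiquitin ligase of p53, at 5.60 and 5.39 against 18.0 and 15.3 FPKM, and Ccng1, cyclin G1, at 6.56 and 8.64 against 16.5 and 32.9 FPKM, did not pass (adjusted p = 0.0692 and 0.0942). The gene of p53 itself, Trp53, was at 8.47 and 11.8 against 15.4 and 17.1 FPKM (adjusted p = 0.326). Of 40 tested cell cycle and DNA replication genes 3 rose and none fell (median 1.09), with 1 after median-ratio scaling. These 40 of 59 listed genes passed the filter on low values, which favours genes that are high in 1 group only. Members listed at 0 numbered 11 and 9 in WT 2 and WT 3 and 11 and 2 in cKO 2 and cKO 3. One of the 3 was Cdkn1a, which also stands in the p53 list. The others were Mcm6, a subunit of the replicative helicase, and Stmn1, a tubulin-binding protein (2.42 ± 0.44 and 2.59 ± 0.43). Mki67, the proliferation marker, was at 0.278 and 0.587 against 5.51 and 3.91 FPKM and did not pass (adjusted p = 0.0568).

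Of 41 tested targets of NRF2, the factor that answers oxidative and electrophile stress, 10 rose and 1 fell (median 1.08), with 7 and 2 after median-ratio scaling. Gstm3, a glutathione transferase with close paralogs, went from 30.0 and 113 FPKM to 629 and 836 FPKM (3.61 ± 0.59, adjusted p = 0.0243). Akr1b7, an aldose reductase, rose (3.81 ± 0.47), and Cbr3, a carbonyl reductase, was listed at 0 in both livers labelled WT and was at 8.62 and 12.95 FPKM in those labelled cKO (adjusted p = 0.0143). Osgin1, an oxidative stress growth inhibitor, was the 1 that fell (91.6 and 208 against 22.1 and 34.5 FPKM, adjusted p = 0.0437). Nqo1, the quinone reductase most used to read NRF2, was at 0.980 and 2.30 against 7.71 and 8.82 FPKM (1.86 ± 0.45, adjusted p = 0.0611) and did not pass, nor did Gclc (adjusted p = 0.428). The letters TGACNNNGC of the antioxidant response element were in 8 of 35 promoters of the list (22.9%), 14.1% of those tested and 11.5% of all. The promoter of Ugdh, which makes UDP-glucuronic acid for conjugation and rose from 50.2 and 65.7 FPKM to 178 and 244 FPKM (1.84 ± 0.35, adjusted p = 0.0345), is named after its values were seen and is shown because it holds these letters at 2 places, 132 and 94 bases before the start (chr5:65435843-65436092, minus strand), in capitals.
Ugdh: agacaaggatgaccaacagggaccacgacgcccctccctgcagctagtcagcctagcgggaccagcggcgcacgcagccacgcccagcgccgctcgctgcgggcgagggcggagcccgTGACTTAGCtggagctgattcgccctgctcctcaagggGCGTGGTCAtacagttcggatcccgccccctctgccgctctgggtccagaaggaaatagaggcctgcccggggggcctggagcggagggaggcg

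Of 41 tested genes of the unfolded protein and integrated stress responses 5 rose and none fell (median 0.68), and 3 rose and 1 fell after median-ratio scaling. Asns, asparagine synthetase, went from 1.49 and 1.28 FPKM to 21.0 and 17.6 FPKM (3.09 ± 0.38, adjusted p = 0.0134), Trib3, a pseudokinase, rose (3.81 ± 0.74), and Psat1 and Nupr1 are given above. The chaperones of the endoplasmic reticulum did not pass. Hspa5 was at 138 and 93.0 against 161 and 294 FPKM (0.93 ± 0.41, adjusted p = 0.211) and Calr at 549 and 423 against 296 and 256 FPKM (-0.81 ± 0.32, adjusted p = 0.173), so the most abundant of them lay on opposite sides of 0. Of 28 tested immediate early genes 4 rose (median 1.05), namely Ctgf, a matricellular protein, Myc, the transcription factor, Btg2, an antiproliferative protein, and Cyr61, another matricellular protein, with log2 differences between 2.03 and 2.73. After median-ratio scaling 1 of these passed. Their limma p-values, like those of all other genes here, use a spread for each gene that is drawn toward a trend over all genes. They refer to these 4 libraries only.

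Cytosolic ribosomal protein genes were the list with the most calls in 1 direction. Of 81 tested 42 rose and none fell, and the median was 1.77. A positive difference was found in 80 of them, against 7785 of all 10922 tested genes. After median-ratio scaling 17 rose and the median was 1.25. Together they took 1.51% and 1.64% of all FPKM in the livers labelled WT and 4.90% and 5.52% in those labelled cKO. Rps12, of the small subunit, was at 32.2 and 34.4 FPKM against 499 and 509 FPKM (3.88 ± 0.31, adjusted p = 0.00254), and Rpl38, of the large subunit, at 27.7 and 32.6 against 210.3 and 319.9 FPKM (3.07 ± 0.36, adjusted p = 0.0109). Genes of this family have many processed pseudogenes, and some of its members gave unstable estimates. Rps27 was at 109 and 85.6 FPKM in WT 2 and WT 3 but at 2.31 and 301 FPKM in cKO 2 and cKO 3, and Rpl15 at 6.78 and 82.6 FPKM in the latter. Related lists had fewer calls. Of 76 mitochondrial ribosomal proteins 3 rose (3.95%, median 0.64), and of 60 translation factors 3 rose (5%, median 0.70). After median-ratio scaling 1 rose in each, with medians of 0.17 and 0.19. Of 81 nuclear-encoded respiratory chain genes 1 rose (1.23%, median 0.39), and of 47 proteasome subunits 1 rose (2.13%, median 0.33). These last 2 medians lay below that of all tested genes, of which 3.69% rose. The counts of these lists thus do not set them apart. Eef1g, of the elongation factor complex, was at 19.7 and 20.2 against 81.7 and 84.0 FPKM (2.00 ± 0.32, adjusted p = 0.0235).

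Of 45 tested cytoskeletal and calcium-binding proteins 11 rose and none fell (median 1.16), with 7 after median-ratio scaling. Besides S100a11, they included Actg1, cytoplasmic gamma-actin, which went from 18.3 and 39.0 FPKM to 226 and 182 FPKM (2.88 ± 0.43, adjusted p = 0.0194), and Anxa2, a membrane-binding annexin (2.78 ± 0.51). Actb, cytoplasmic beta-actin, was at 563 and 778 against 1179 and 1296 FPKM (0.90 ± 0.32) and did not pass (adjusted p = 0.141). Krt18, a keratin of hepatocytes and ducts, was at 57.0 and 76.0 against 160.4 and 228 FPKM (adjusted p = 0.0548).

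**Figure D3:**
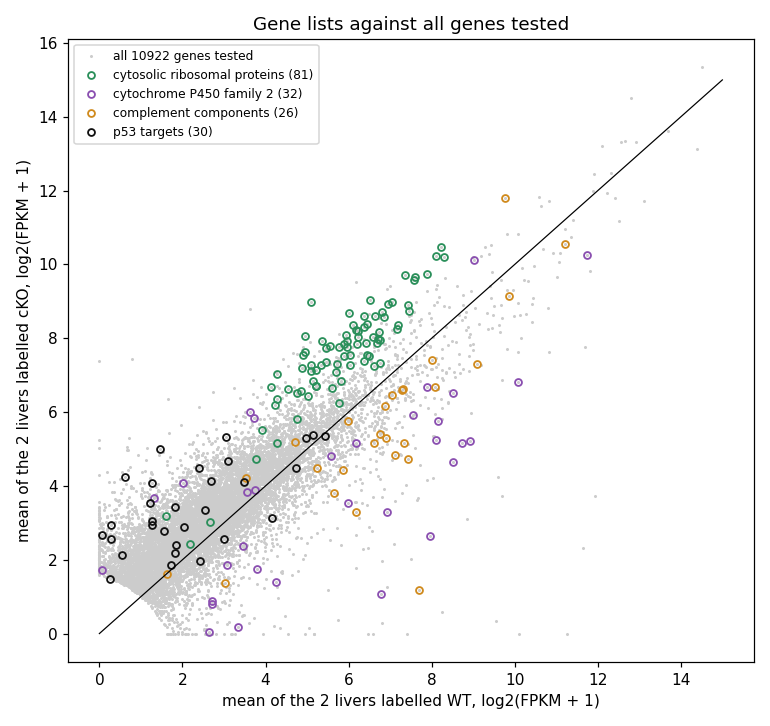
Mean level of the 2 livers labelled cKO against that of the 2 labelled WT, both axes as log2(FPKM + 1), with all tested genes as grey points, 4 gene lists as colored circles and equality as the line. Cytosolic ribosomal proteins (80 of 81 with a positive difference, against 7785 of all 10922 tested genes) lie above the line. Family 2 cytochrome P450 (14 of 32 called lower) and complement genes (7 of 26 called lower) lie mostly below it.

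Several lists held about as few called genes as the shares over all tested genes give (3.69% higher and 1.51% lower), so their counts do not set them apart. Of 41 hepatocyte transcription factors and nuclear receptors 1 fell (median -0.02), namely Nr0b2, the small heterodimer partner that represses bile acid synthesis (9.39 and 28.0 against 0 and 1.87 FPKM, adjusted p = 0.042). Hnf4a, a central factor of hepatocyte identity, was at 87.8 and 93.3 against 76.9 and 78.6 FPKM (-0.22 ± 0.31, adjusted p = 0.706), and Rxra, the partner of many nuclear receptors, was close to equal (56.2 and 60.3 against 62.7 and 66.9 FPKM). None of 18 clock genes and none of 21 m6A writers, erasers and readers passed in limma (medians 0.01 and 0.68). Of 47 interferon response genes 1 rose, Oasl1, of the oligoadenylate synthetase family (2.66 ± 0.42), and their median equalled that of all tested genes (0.42). Antigen presentation split, with Cd74, the class II invariant chain, higher (1.74 ± 0.35) and H2-Q10, a class I gene that the liver secretes, lower (-1.60 ± 0.32). In all, the 51 lists held 1483 tested genes and 230 of the 568 called genes.

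**Figure D4:**
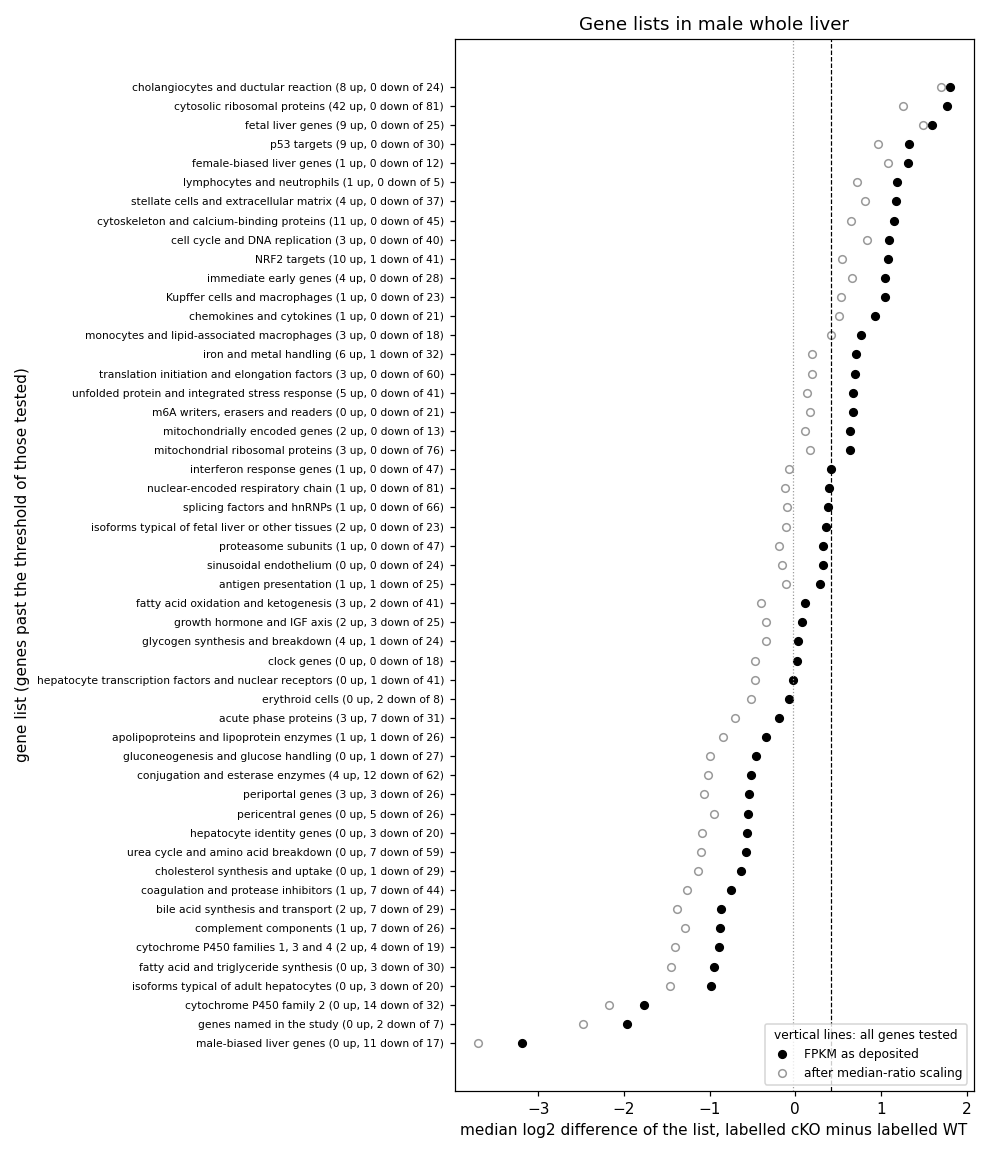
Median log2 difference (cKO minus WT label) of each of the 51 gene lists, as filled points for the deposited FPKM and open points after median-ratio scaling, with the count of genes higher and lower among those tested beside each name and vertical lines for all tested genes. Male-biased genes (median -3.19), the 7 genes named in the study (median -1.96) and cytochrome P450 family 2 (median -1.76) lie lowest. Cholangiocyte genes (median 1.80) and cytosolic ribosomal proteins (median 1.77) lie highest, against 0.42 over all tested genes. Of the 7, the study had chosen Gys2, Egfr, Fasn and Mlxipl among genes lower in these same samples, so their place is not a result. Only 2 of the 7 were called lower.

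The genes that differed most within a label were looked up among those averaging 20 FPKM or more. The entry RPL24 differed by 6.97 on the log2 scale between cKO 2 and cKO 3 and by 4.63 between WT 2 and WT 3. Mup16 was at 5.04 FPKM in WT 2 and 334 FPKM in WT 3 and at 0 in both others, so it did not pass (adjusted p = 0.0927). Phpt1 and Ndufab1 each differed by over 3 on that scale between the livers labelled cKO. Gapdh was listed at 2.37 and 45.6 FPKM under WT and at 3.73 and 0.308 FPKM under cKO, against 1359 and 2292 FPKM in the female pair, and like mt-Atp8 it may be an estimate that failed. At the filter, Lmcd1 with a mean of 1.001 FPKM was the last gene kept and Vtcn1 with a mean of 0.9999 FPKM the first left out.

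A pair of female livers, 1 titled WT and 1 titled cKO, was sequenced as plain RNA and gave values for the same genes outside the test. The genotype label of the female library titled WT reads as Mettl3 cKO, so the title was followed. Mettl3 did not check the titles, at 29.7 FPKM in the library titled WT and 72.3 FPKM in the one titled cKO, and whether the pair is exchanged cannot be told from these values. Alb was listed at 0 in the library titled WT and at 12968 FPKM in the other, so a listed 0 need not mean absence. Of the 403 genes that rose in males 347 (86.1%) were at least 2-fold higher in the female liver titled cKO, against 31.7% of all tested genes. Of the 165 that fell 148 (89.7%) were at least 2-fold lower there, against 11.6%. The medians were 2.35 and -2.38, and 13 and 6 genes had the opposite sign. With 1 library per title there is no replicate check. C8a (194 against 15.97 FPKM), Ly6d (5.87 against 835 FPKM) and Nupr1 (6.72 against 1102 FPKM) differed in the direction of the males. Sex-biased genes did not all do so. The female-biased list had a median of -1.98 in the female pair and 1.31 in the males. Cyp2a4 was at 672 FPKM in the female liver titled WT and at 47.6 FPKM in the one titled cKO. Of the male-biased genes, Hsd3b5 was at 1.38 and 0.674 FPKM. The difference between the sexes was not tested. In isolated hepatocytes, again 1 input library per label, the genes that fell in liver lay the other way. Of the 165 genes, 138 (83.6%) had a level in the cKO input that was 2-fold or more above that of the WT input, compared with 20.8% of the genes tested, and none was 2-fold or more lower.

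**Figure D5:**
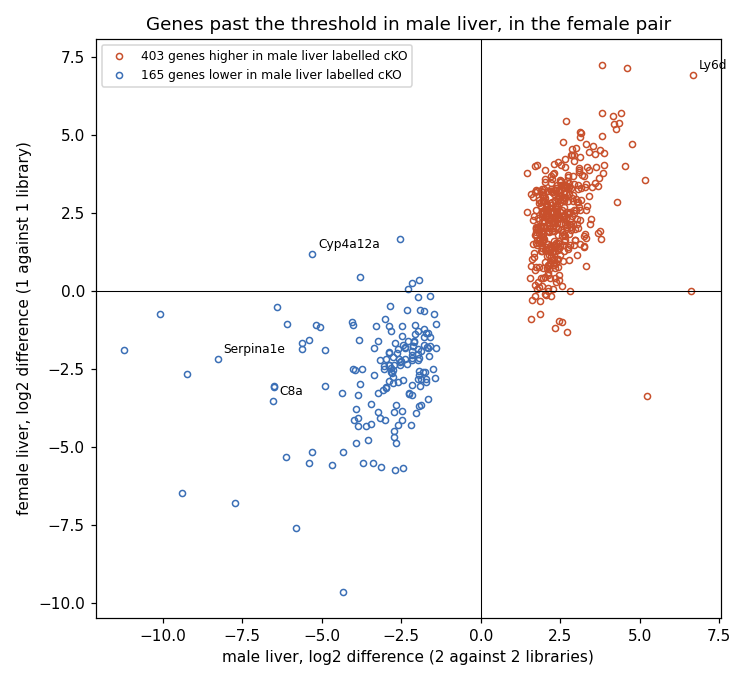
Log2 difference between the 2 female livers (titled cKO minus titled WT) against that between the male livers, 1 point for each of the 568 genes called in males. Of the genes that rose in males 86.1% are at least 2-fold higher in the female pair, and Cyp4a12a, which fell in males, is higher there (1.18).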

How the data were processed

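The deposited tables hold FPKM and, per the file headers, counts for each gene and library. Per the submitters' processing notes, the authors trimmed reads with cutadapt 1.9.3, aligned them to mm10 with HISAT2 2.0.4 and obtained FPKM with Cufflinks and Cuffdiff (no version stated in what was used here). The deposited count columns are not whole and are treated as a signal that the authors had scaled. Of their low values 94.3% to 95.5% lay within 0.02 of a whole step, and they gave only the depth. The m6A peak lists were not used.

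FPKM of one symbol were summed, genes under a mean of 1 FPKM left out, and log2(FPKM + 1) fitted with limma 3.58.1 (trend) in R 4.3.3, with Benjamini-Hochberg adjustment at 0.05 and 2 residual degrees of freedom. Values after ± are standard errors from this fit, in which the spread of each gene is drawn toward a trend over all genes. Marker sums were compared by two-sided exact permutation tests. Promoters came from RefSeq (GRCm38.p6). The fit was tested on simulated data. Alternatives were other pseudocounts, filters and scalings, a replicate block and leaving out each library.

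Members and gene lists were chosen with earlier results of these data known. Named genes were the 15 largest called differences each way with at least 5 FPKM in the higher group, the 10 smallest adjusted p, up to 4 called genes per list with up to 3 abundant ones that did not pass, whole isoform and m6A lists, and genes that differed most within a label. Others (Onecut1, Stat5b, Trp53, Mdm2, Ccng1, Cyp2a5, Cyp3a11, Cp, Mki67, Nqo1, Gclc, Krt19, Krt7, Epcam, Sox9, Gapdh and female-specific genes) were looked up by name with results known. Some genes that met these rules are not reported here.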

Additional observations from a re-analysis of the deposited data

Results flagged for a closer look

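The genes given here passed the test in male liver and differed in the opposite direction in the female pair, where 1 library stands for each title. The difference between the sexes was not tested. Cyp4a12a and Selenbp2, both male-biased genes, fell in male liver and were higher in the female pair (log2 differences 1.18 and 0.44), at low levels for Cyp4a12a (0.386 and 2.14 FPKM). Dcn, decorin, rose in male liver and was lower in the female pair (-0.89).

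The hepatocyte inputs, 1 per label, also went against the male livers, with 83.6% of the genes that fell in liver at least 2-fold higher in the hepatocyte input labelled cKO. The study reports lower RNA in cKO hepatocytes for the genes it selected, Gys2 among them. Whether the labels of the hepatocyte pair are exchanged cannot be told from these values. This difference between the hepatocyte and liver inputs was not tested either.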

How the results depend on the processing

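Median-ratio scaling gave 164 genes higher and 292 lower, and no filter on low values, with 14932 genes tested, gave 2 and 14. A pseudocount of 0.1 FPKM (295 and 125), a filter at a mean of 5 FPKM (409 and 180) and rescaling without mitochondrially encoded genes (491 and 189) stayed within 1.5 times of 403 and 165. Leaving out 1 library gave 0 to 0 genes higher and 0 to 2 lower, with 1016 to 2130 higher and 305 to 879 lower at an unadjusted p under 0.05. WT and cKO share the numbers 2 and 3, but the labels do not say that these pair the livers, and deviations of same-numbered libraries had r = 0.126 (0.195 over genes averaging 10 FPKM or more). With the replicate block 793 genes were higher and 288 lower, including all 568. Without the filter on low values, 94 of the named genes past the threshold no longer passed and 10 still did. After median-ratio scaling 18 of the named genes past the threshold no longer passed (Id1, Smad7 and Apoa4 besides those given above). With it, 5 that had not passed then did (Apoa2 besides those above). After that scaling the sign turned for Abcc2 (-0.19), Apoe (-0.12), Cp (-0.11), Rxra (-0.37) and Trf (-0.46), and leaving out 1 library gave values from -0.15 to 0.81 for Abcc2, from -1.05 to 0.28 for Cyp3a11, from -0.35 to 1.63 for Hamp and from -0.40 to 0.54 for Trf, none of them past the threshold. The cause was not tested. The planned edgeR and DESeq2 tests were not run, because the deposited count columns were not whole. Genes of few FPKM rest on few fragments, and 2 livers per label limit every test.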

Other observations

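Iron, selenium and metal genes moved with little coherence. Of 32 tested 6 rose and 1 fell (median 0.71), and after median-ratio scaling none rose and 2 fell. Those that rose included Id1 and Smad7, both targets of bone morphogenetic protein signalling, which sets the iron hormone hepcidin (log2 differences 2.75 ± 0.55 and 1.95 ± 0.41, limma adjusted p = 0.0386 and 0.0456). Hamp, which encodes hepcidin, was at 1752 and 1445 FPKM in the livers labelled WT and at 4918 and 1248 FPKM in those labelled cKO, so its labels overlapped (adjusted p = 0.551). Trf, transferrin, overlapped as well (3083 and 4434 against 2796 and 5360.4 FPKM).

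Of 26 tested apolipoproteins and lipoprotein enzymes 1 rose and 1 fell, and none rose and 4 fell after median-ratio scaling. Apoa4, a lipid-responsive apolipoprotein of low level here, rose from 10.6 and 16.6 FPKM to 89.8 and 60.1 FPKM (2.38 ± 0.40, adjusted p = 0.0251). Apoa2 was at 7885 and 9833 against 2285 and 4401 FPKM (-1.47 ± 0.39, adjusted p = 0.0760) and Apoa1 at 3443 and 4276 against 6554 and 4734 FPKM (adjusted p = 0.347), neither past the threshold. Of the m6A machinery, 20 of 21 tested genes had a positive difference without any passing, against 7785 positive of all 10922 tested genes. Their median was 0.68 and fell to 0.17 after median-ratio scaling.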
